A study of Mus musculus with 4 samples.

Results

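The genes described here are 10 immediate early genes of the mouse, the transcription factors Egr1, Egr2, Egr3, Nr4a1, Nr4a2, Nr4a3 and Klf4, the nuclear protein Ier2, the phosphatase Dusp1 and the RNA-binding protein Zfp36. They were chosen by name, and each of the 10 was found in the 48432 rows of the expression table. The RNA came from cardiomyocytes, the beating muscle cells of the heart, which were isolated by Langendorff perfusion and sequenced after polyA selection. The control group, called MHC cells (2 libraries, genotype MHC), and the Rbfox2_OE group, called overexpressing cells (2 libraries, genotype RbFox2, overexpressing the splicing regulator RBFOX2), shared the strain C57BL x FVB, and both had been fed doxycycline for 3 days. The labels do not say what MHC stands for here, which promoter drives the transgene, how old the mice were or whether the libraries of a group came from separate animals.

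The table holds 1 FPKM value per gene and group (a fragment count divided by transcript length and by the mapped fragments of the library), with a lower and an upper bound whose level is not stated. For 7 of the 11697 genes compared below, 0 of them among the 10, the deposited bounds do not contain the value. Values of the single libraries were not analysed here, so no test between the groups could be made, and each value below is the authors' combined value of 2 libraries, followed by their bounds. Rbfox2 itself stood at 14.7 FPKM in MHC cells (bounds 10.4 to 19.0) and at 293 FPKM in overexpressing cells (bounds 214 to 373), in the direction of the labels. The cardiomyocyte label was checked on 10 marker genes. The troponin gene Tnnt2 stood at 10609 and 6917 FPKM and the ventricular myosin light chain gene Myl2 at 24688 and 18007 FPKM, while Myh6 and Mb had the status HIDATA, which Cuffdiff gives where a locus has more fragments than it will estimate from, and are listed at 0. The depth of the libraries in fragments is unknown.

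Immediate early genes are transcribed within minutes of a stimulus without the need for newly made protein. Growth factors, stretch and adrenergic hormones reach them through the ERK kinases, which act on SRF and its Elk partners at the CArG box, and through cyclic AMP, which acts on CREB at the cyclic AMP response element (CRE). Many of their transcripts are short-lived because AU-rich elements in the 3′ untranslated region recruit decay factors such as the product of Zfp36. In the heart they are known for their response to haemodynamic load and to hypertrophic stimuli, and in isolated cells they are also known to respond to handling of the tissue.

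These control sequences are shown for some of the 10 genes, namely Dusp1, Nr4a1, Nr4a3, Egr2 and Zfp36. RefSeq promoter windows on GRCm38.p6 were matched for 7 of the 10 genes, and Egr1, Egr3 and Ier2 had none in the table used. In the 250 bases before the start, the CRE core TGACG, searched on both strands, was found in 6 of these 7 genes (Egr2, Nr4a1, Nr4a2, Nr4a3, Klf4 and Dusp1) and in 19.8% of 27025 genes with such a window. The stretches below lie before a RefSeq start of the gene and, except that of Zfp36, outside annotated exons. Those of Dusp1, Nr4a1, Egr2 and Zfp36 lie inside the gene as GENCODE M21 draws it, since other transcripts start farther upstream. Each is written 5′ to 3′ along the strand of its gene, and capitals mark TGACG on either strand and the CArG box. Dusp1 (chr17:26508520-26508722, minus strand) held 3 TGACG cores, a pair of which overlap in a full palindromic CRE, TGACGTCA, which 1.77% of genes held. Nr4a1 (chr15:101266596-101266845, plus strand) held 4. Nr4a3 (chr4:48045055-48045152, plus strand) also held 4, of which the 3 farthest from the start are shown.
Dusp1: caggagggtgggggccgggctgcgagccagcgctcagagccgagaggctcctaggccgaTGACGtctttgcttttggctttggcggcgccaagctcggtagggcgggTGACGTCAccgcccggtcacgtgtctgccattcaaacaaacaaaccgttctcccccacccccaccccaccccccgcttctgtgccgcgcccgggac
Nr4a1: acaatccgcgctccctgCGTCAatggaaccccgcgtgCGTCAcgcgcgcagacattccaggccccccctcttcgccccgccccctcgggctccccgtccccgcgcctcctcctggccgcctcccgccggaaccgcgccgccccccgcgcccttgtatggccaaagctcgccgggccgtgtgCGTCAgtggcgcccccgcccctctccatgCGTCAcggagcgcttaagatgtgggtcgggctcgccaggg
Nr4a3: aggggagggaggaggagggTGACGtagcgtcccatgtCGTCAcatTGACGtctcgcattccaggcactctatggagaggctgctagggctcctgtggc

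The CArG box, the binding motif of SRF, was found in the windows of Egr2 and Zfp36, and in those of 1.62% of genes. Egr2 has 5 windows in the table. The one shown (chr10:67537619-67537868, plus strand) was picked among those that held both motifs, and of these it alone lies outside annotated exons. Zfp36 held no TGACG core in its window, and 30 bases around its CArG box (chr7:28379267-28379296, minus strand) are shown, which lie in an exon of a longer annotated transcript.
Egr2: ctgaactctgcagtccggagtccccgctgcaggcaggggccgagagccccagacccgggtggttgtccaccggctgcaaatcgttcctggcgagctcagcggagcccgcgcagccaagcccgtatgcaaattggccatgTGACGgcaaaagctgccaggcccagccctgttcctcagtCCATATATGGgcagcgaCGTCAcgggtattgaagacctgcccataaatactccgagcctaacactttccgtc
Zfp36: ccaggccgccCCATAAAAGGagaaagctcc
The motif that EGR proteins bind, GCGNGGGCG, was found in Nr4a1, Nr4a2, Klf4 and Zfp36 and in 5.33% of genes. The motif of the NR4A receptors, AAAGGTCA, was found in 0 of the 7 genes and in 1.55% of genes. On either strand, TATAAA was found in 14.3% of genes and, of the 7, in Nr4a2, there on the strand opposite to the gene. A match is a description of these letters and not of a bound site.

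The levels of the 10 genes, which FPKM allows to be compared per length, fell into a high, a middle and a low range. Dusp1, the nuclear phosphatase that switches off MAP kinases, was highest in MHC cells at 174 FPKM, followed by Egr1, a zinc finger activator, at 155 FPKM and Zfp36, a promoter of mRNA decay, at 118 FPKM. The bounds of these neighbours overlapped, so their order is not separated. Among the 11697 gene names that reached a mean of 1 FPKM across both groups, these 3 levels in MHC cells lay at percentiles 96.5, 96.0 and 94.7. Ier2 at 57.2 FPKM, Nr4a1 at 36.4 FPKM and Klf4 at 23.5 FPKM followed, each with bounds that overlapped those of the next, and the bounds of Zfp36 and Ier2 were separate. Nr4a3 stood apart from its neighbours in the order at 3.76 FPKM. Egr2, Nr4a2 and Egr3 closed the order at 0.626, 0.566 and 0.438 FPKM, again with overlapping bounds.

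Each family was thus dominated by 1 member. In MHC cells, Egr1 stood 248 times as high as Egr2, and Nr4a1 stood 9.69 times as high as Nr4a3. In overexpressing cells these ratios of levels were 92.6 and 7.97. The bounds leave the ratio of Egr1 to Egr2 wide, from 39.2 to 368 in overexpressing cells and, with a lower bound of 0 for Egr2, without an upper end in MHC cells. The order in overexpressing cells began with Zfp36 at 123 FPKM, Egr1 at 122 FPKM and Dusp1 at 93.6 FPKM, and Klf4 at 28.9 FPKM came before Nr4a1 at 24.1 FPKM. From Zfp36 down to Nr4a1 the bounds of every pair of neighbours overlapped, and those of Nr4a1 and Nr4a3 were separate. The last 4 places were held by Nr4a3, Egr2, Nr4a2 and Egr3, as in MHC cells.

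**Figure D1:**
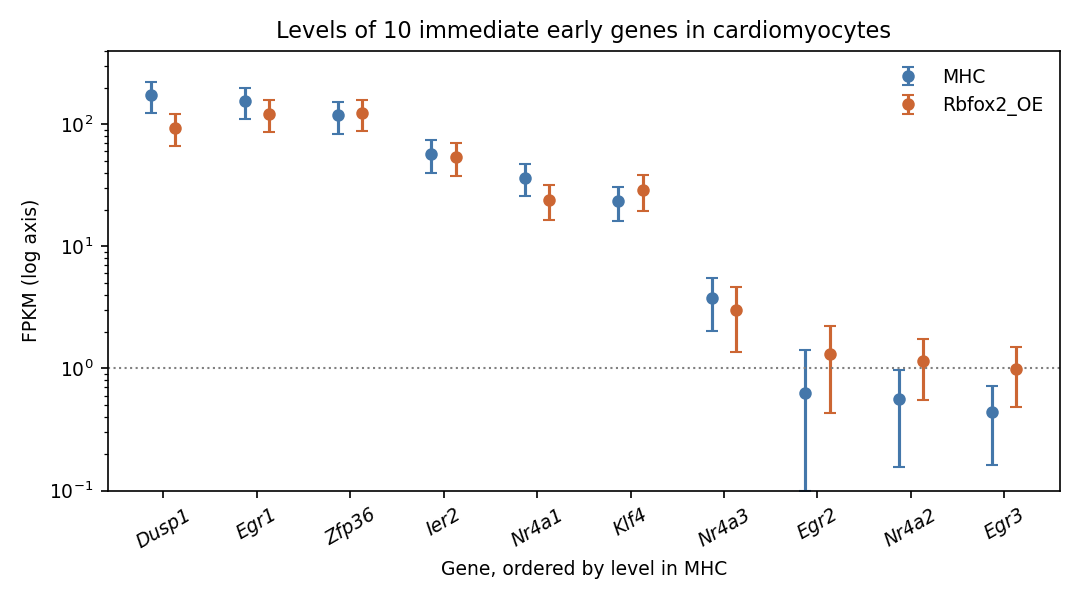
FPKM on a log axis for the 10 genes, ordered by level in MHC cells, with MHC cells in blue and overexpressing cells in orange; points are the authors' combined values of 2 libraries, bars their lower and upper bounds (the lower bound of Egr2 in MHC cells is 0 and is drawn to the edge), and the dotted line is 1 FPKM. The bars of Dusp1 are separate, at 124 against 121 FPKM, and the bars of the other 9 genes overlap.

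The groups were then compared by the log2 ratio of Rbfox2_OE over MHC, with a pseudocount of 1 FPKM added to each value, which understates the change of low genes. Of the 10 genes, 7 reached a mean of 1 FPKM across both groups and entered the comparison. At least 2-fold apart in either direction were 0 of the 7, where 17.0% of all genes compared were, and 0 of the 7 were 2-fold higher, where 6.97% of all genes were. The authors' bounds were separate and lower for 1 of the 7, Dusp1, beside 9.33% of all genes, and separate and higher for 0 of the 7, beside 6.67%. In either direction the 1 gene of 7 stands beside 16.0% of all genes, a share near the background. The median log2 ratio over the 7 genes was -0.24, with 5 below 0 and 2 above. Over all 11697 genes the median was -0.06, with 6289 below 0 and 5408 above. When the groups were rescaled without the mitochondrial and the 10 most abundant genes, the overexpressing group shifted by 0.15 on the log2 scale, the split over all genes went from 815 higher and 1172 lower to 1042 higher and 926 lower, and the median of the 7 genes was -0.13 beside 0.06 over all genes.

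Dusp1 (ENSMUSG00000024190, GRCm38 chromosome 17, 26505590 to 26508519, minus strand, a protein-coding gene) was the gene farthest from equality among the 7, at a pseudocount of 1. It stood at 174 FPKM in MHC cells (bounds 124 to 223) and at 93.6 FPKM in overexpressing cells (bounds 66.1 to 121). The level in MHC cells was thus the higher, 1.85 times that of overexpressing cells, and the bounds missed each other by 3.03 FPKM. The log2 ratio was -0.88, at percentile 12.7 of all genes compared, and opposite bounds of the groups gave -1.74 and -0.04. The log2 ratio was -0.82 on centring and -0.74 on rescaling, but the bounds then overlapped: centring on the median gene raised the upper bound in overexpressing cells to 126 FPKM and rescaling raised it to 134 FPKM, both above the lower bound of 124 FPKM in MHC cells.

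Among the Egr genes, the abundant Egr1 (ENSMUSG00000038418, chromosome 18, 34859823 to 34864984, plus strand, protein-coding) stood at 155 FPKM in MHC cells (bounds 111 to 199) and at 122 FPKM in overexpressing cells (bounds 86.6 to 158). The bounds overlapped by 46.7 FPKM, and the log2 ratio of -0.34 came with a range of -1.19 to 0.50 from the bounds. Egr2, known for its role in myelinating Schwann cells (chromosome 10, 67535475 to 67542188, plus strand), stood at 0.626 FPKM in MHC cells (bounds 0 to 1.41) and at 1.32 FPKM in overexpressing cells (bounds 0.430 to 2.21). Egr3, a related zinc finger factor (chromosome 14, 70077445 to 70080157, plus strand), stood at 0.438 FPKM (bounds 0.161 to 0.716) and 0.996 FPKM (bounds 0.479 to 1.51). Both low genes were thus higher in overexpressing cells while Egr1 was lower, and the groups overlapped for all of them.

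The Nr4a genes encode orphan nuclear receptors that act without a known hormone. Nr4a1 (ENSMUSG00000023034, chromosome 15, 101266846 to 101274792, plus strand, protein-coding) stood at 36.4 FPKM in MHC cells (bounds 25.6 to 47.2) and at 24.1 FPKM in overexpressing cells (bounds 16.5 to 31.6), with a log2 ratio of -0.58 and a range of -1.46 to 0.29. Its bounds overlapped by 5.99 FPKM. Nr4a3 (chromosome 4, 48045153 to 48086447, plus strand) stood at 3.76 FPKM (bounds 2.03 to 5.49) and 3.02 FPKM (bounds 1.36 to 4.68), with a log2 ratio of -0.24. Nr4a2, known for its role in dopaminergic neurons (chromosome 2, 57106830 to 57124003, minus strand), stood at 0.566 FPKM (bounds 0.155 to 0.977) and 1.15 FPKM (bounds 0.552 to 1.75). The more abundant pair was lower in overexpressing cells and the least abundant receptor was higher, with overlapping bounds for all of them.

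Egr2, Egr3 and Nr4a2 did not reach a mean of 1 FPKM and entered no count of the 7 genes. Their plain ratios of Rbfox2_OE over MHC were 2.11, 2.27 and 2.03, and their log2 ratios with a pseudocount of 1 were 0.51, 0.47 and 0.46. In MHC cells their bounds reached 63.3% to 113% of the value to either side, against 28.3% to 46.1% for the other 7 genes. With a pseudocount of 0.1 and no filter, a setting chosen after the values were seen, Egr3 passed the 2-fold threshold at a log2 ratio of 1.03, with bounds that still overlapped.

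Zfp36, Ier2 and Klf4 make up the rest of the 10 genes, and the first pair lay nearest to equality. Zfp36 (ENSMUSG00000044786, chromosome 7, 28376784 to 28380253 in GENCODE M21, minus strand, a protein-coding gene) stood at 118 FPKM in MHC cells (bounds 83.9 to 152) and at 123 FPKM in overexpressing cells (bounds 87.2 to 158), with a log2 ratio of 0.05 and a range of -0.80 to 0.91. The table gives it a locus shared with Med29 and the antisense gene Gm44710, which stands on the opposite strand, so part of its fragments could have been assigned between them. Ier2, a nuclear protein of the early growth response (chromosome 8, 84661331 to 84662852, minus strand), stood at 57.2 FPKM (bounds 40.2 to 74.2) and 53.7 FPKM (bounds 37.6 to 69.9), and its log2 ratio of -0.09 became 0.06 on rescaling. Klf4, a zinc finger factor known from the reprogramming of cells and from vascular endothelium (chromosome 4, 55527143 to 55532466, minus strand), stood at 23.5 FPKM (bounds 16.1 to 30.9) and 28.9 FPKM (bounds 19.7 to 38.1), with a log2 ratio of 0.29. The bounds of these 3 genes overlapped widely.

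**Figure D2:**
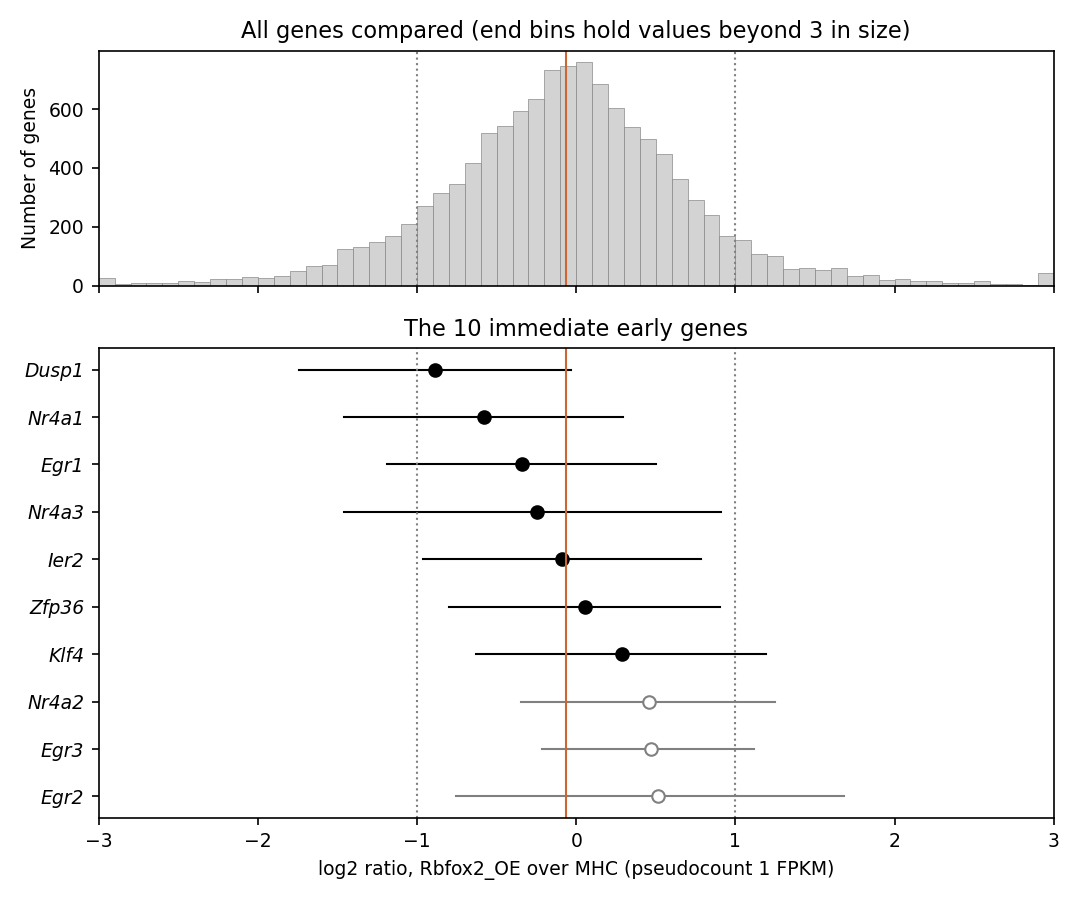
Upper panel, number of genes by log2 ratio of Rbfox2_OE over MHC for the 11697 genes compared; lower panel, the 10 genes, with lines between the ratios that opposite bounds of the groups give and open circles for the 3 genes under a mean of 1 FPKM. The orange line is the median of all genes (-0.06) and dotted lines mark 2-fold; every point lies inside the dotted lines, and in values as deposited the line of Dusp1 stays below 0, up to -0.04.

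Ratios between genes of the same group do not depend on how the groups were scaled. Dusp1 stood at 1.47 times the level of Zfp36 in MHC cells and at 0.763 times in overexpressing cells. The bounds allow 0.815 to 2.66 in MHC cells and 0.418 to 1.39 in overexpressing cells, which overlap. Egr1 stood at 1.31 times the level of Zfp36 in MHC cells and at 0.997 times in overexpressing cells. Nr4a1 stood at 1.55 times the level of Klf4 in MHC cells and at 0.833 times in overexpressing cells, with ranges of 0.828 to 2.94 and 0.433 to 1.61. The order of Dusp1 and Zfp36, and that of Nr4a1 and Klf4, thus differed between the groups, within the reach of the bounds.

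Most of the 10 genes are short. Measured on the transcript with the longest coding sequence in GENCODE M21, the 10 genes had a median of 3 exons, against 9 over 11083 protein-coding genes compared, and the transcript spanned a median of 5200 bases of genome, against 22256 bases. Ier2 has 1 exon and spans 1522 bases, Egr1, Egr2, Egr3 and Zfp36 have 2 exons, and Nr4a2 and Nr4a3 have 8. The transcript of Nr4a3 spans 37334 bases, above the median of all genes, and those of the other 9 genes span 1522 to 8209 bases. The AU-rich heptamer TATTTAT, a core of the sites bound by ZFP36, was found in the 3′ untranslated region of 4 of the 10 genes and of 27.5% of 10913 genes. Dusp1 and Zfp36 each held 3 copies, Nr4a3 held 2 and Nr4a2 held 1. One site each is shown, for the 3 genes with more than 1 copy, with capitals for the heptamer: Dusp1 at chr17:26506159-26506187 (minus strand), Zfp36 at chr7:28376926-28376954 (minus strand) and Nr4a3 at chr4:48084754-48084782 (plus strand).
Dusp1: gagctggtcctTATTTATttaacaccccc
Zfp36: agattttatagTATTTATatatattgggt
Nr4a3: agctttgcctgTATTTATtgcaagaccac
The pentamer ATTTA had a median of 3 copies in the 10 genes and of 1 copy over all genes. Ier2 held 0 copies.

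The genes around these 10 were described from lists, with the same background shares. The lists were chosen with earlier results of these data known, so their counts beside these shares are descriptions and no test. Over all genes, 6.97% were at least 2-fold higher and 1172 of 11697 at least 2-fold lower. Separate bounds were found for 6.67% higher and 9.33% lower. Of the AP-1 genes, 7 of 8 were compared, with a median log2 ratio of -0.54. Their log2 ratios were above 0 for 3 and below 0 for 4, beside 5408 and 6289 over all genes. At least 2-fold higher was 1 and at least 2-fold lower was 1, and separate bounds were found for 1 higher and 2 lower. Fos and Jun, the classic AP-1 partners, stood at 189 and 183 FPKM in MHC cells and at 104 and 97.3 FPKM in overexpressing cells, beside 174 and 93.6 FPKM for Dusp1. The bounds were separate for Jun and overlapped for Fos, and those of Jun overlapped too after rescaling. Fos was chosen to be named after values were seen. The stress factor Atf3 was lower, with a log2 ratio of -1.24 and separate bounds; after either scaling it was still at least 2-fold lower, but the bounds overlapped. Fosl2 was higher, with a log2 ratio of 1.16. Junb stood at 192 and 225 FPKM, but its deposited bounds, 0 to 1.44 and 0 to 1.23 FPKM, do not contain these values and were not read.

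Among 46 other early response genes, 45 were compared. At least 2-fold higher were 8, beside 6.97% of all genes, and at least 2-fold lower were 0, beside 1172 of 11697. The bounds were separate for 8 higher, beside 6.67%, and 1 lower, beside 9.33%. The median log2 ratio was 0.49, with 31 genes above 0 and 14 below, beside 5408 above and 6289 below over all genes. Rescaling gave 10 at least 2-fold higher and 0 lower, beside 1042 and 926 of 11697 genes. Ctgf, a secreted matricellular protein, stood at 58.1 FPKM in MHC cells (bounds 40.4 to 75.7) and at 218 FPKM in overexpressing cells (bounds 156 to 280). Nfil3, a bZIP repressor, stood at 6.43 FPKM and 22.9 FPKM, and Myc, a growth regulator, at 3.60 FPKM and 10.7 FPKM, with separate bounds for both. Gadd45b, a stress sensor, was lower at 14.2 FPKM against 27.3 FPKM, with bounds that overlapped after either scaling.

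Paralogues were listed as well. Of 23 paralogues, 20 were compared, and 1 was at least 2-fold higher, beside 6.97% of all genes. It was Klf6, at 14.1 FPKM in MHC cells (bounds 9.84 to 18.3) and 34.6 FPKM in overexpressing cells (bounds 24.3 to 44.8). Klf6 is a relative of Klf4 and also stands in the list of early response genes. Separate bounds were also found for Dusp4, a phosphatase related to Dusp1, at 0.415 FPKM and 1.76 FPKM, and for Zfp36l2, a relative of Zfp36, at 9.29 FPKM and 18.3 FPKM. These 3 relatives were higher in overexpressing cells, also after either scaling, while the bounds of Klf4 and Zfp36 overlapped. As deposited, 3 of the 20 thus had separate, higher bounds, beside 6.67% of all genes. Separate, lower bounds were found for 0, beside 9.33%. Dusp4, however, was under 1 FPKM in MHC cells and passed the filter only through overexpressing cells. At least 2-fold higher on centring were 2 (Klf6 and Dusp4), beside 920 of 11697 genes. On rescaling there were 3 (Zfp36l2 as well), beside 1042 of 11697. Under any of these scalings 0 of the 20 paralogues were at least 2-fold lower. Over all genes, 1172 were at least 2-fold lower as deposited, 1046 on centring and 926 on rescaling.

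The upstream kinases and transcription factors, 23 of 23 compared, had a median log2 ratio of -0.20. The bounds were separate and lower for 3, beside 9.33% of all genes, and separate and higher for 0, beside 6.67%. At least 2-fold higher were 0, beside 6.97%, and at least 2-fold lower was 1, beside 1172 of 11697 genes. That gene was Rps6ka2, an ERK-activated kinase of the RSK family, at 9.71 FPKM in MHC cells (bounds 6.77 to 12.6) and 2.80 FPKM in overexpressing cells (bounds 1.83 to 3.77). Map2k5, the kinase above ERK5, had separate bounds and a log2 ratio of -0.99, and Crtc1, a coactivator of CREB, had -0.91 with bounds that overlapped after either scaling. Srf, the factor of the CArG box, stood at 39.7 FPKM (bounds 18.4 to 61.0) and 32.0 FPKM (bounds 13.5 to 50.4).

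Among 5 partners of the Egr and Nr4a proteins, Rxrg, a retinoid receptor gene, was lower at 8.13 FPKM against 37.7 FPKM, a log2 ratio of -2.08 with separate bounds. The EGR co-repressor genes Nab1 and Nab2 had log2 ratios of 0.56 and 0.57 with overlapping bounds. Of the 5 kinase genes whose products DUSP1 dephosphorylates, 0 passed either criterion, beside 17.0% and 16.0% of all genes, with a median of -0.60. Of the 9 cytokine and inflammatory transcripts known to be bound by ZFP36, 8 were compared. At least 2-fold higher with separate bounds were 6, also after either scaling. Over all genes, 6.97% were at least 2-fold higher and 6.67% had separate, higher bounds. On centring 920 of 11697 genes were at least 2-fold higher, and on rescaling 1042. The list was chosen with earlier results of these data known, so its count beside these shares is a description and no test. Cxcl2, a neutrophil chemokine, stood at 6.63 FPKM in MHC cells (bounds 3.00 to 10.3) and at 52.1 FPKM in overexpressing cells (bounds 29.4 to 74.8). Il1b and Il6, inflammatory cytokines, stood at 0.781 and 0.827 FPKM in MHC cells and at 9.38 and 6.88 FPKM in overexpressing cells. Both thus passed the filter of 1 FPKM only through the group where they were high, and both are among the 6. The bounds of Zfp36 itself overlapped between the groups.

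**Figure D3:**
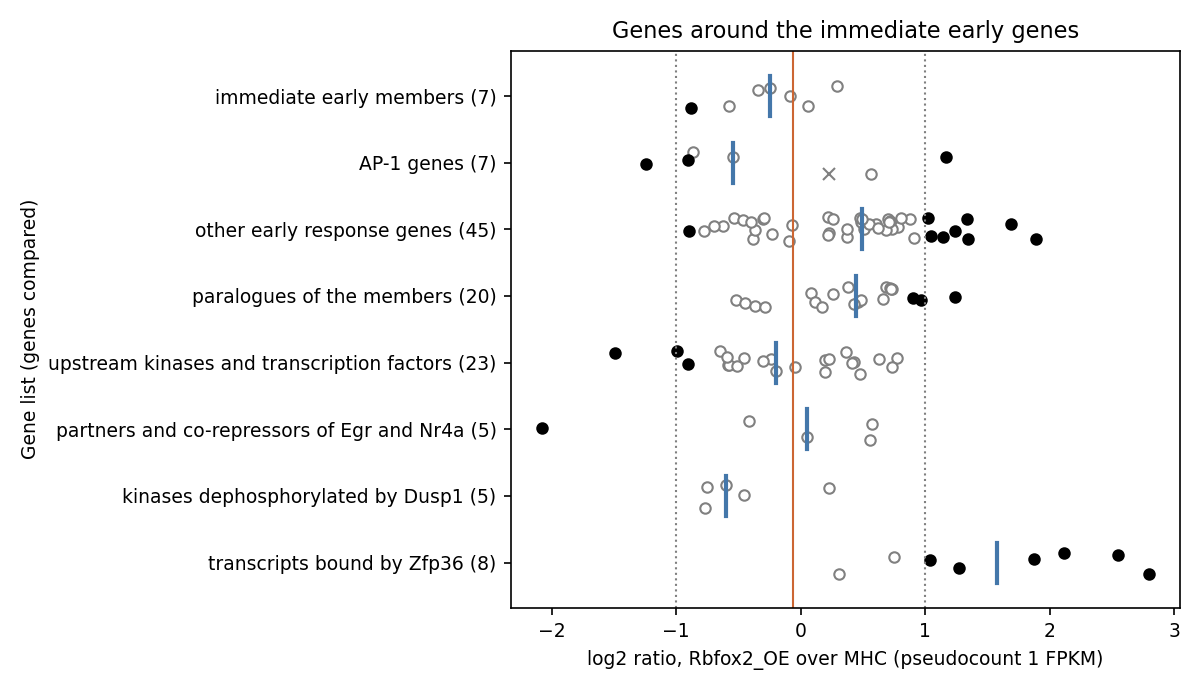
Log2 ratio of Rbfox2_OE over MHC for the genes compared in each list (number in parentheses); filled circles have separate bounds, open circles overlapping bounds, the cross is Junb, whose bounds do not contain its value, blue bars are list medians, the orange line is the median of all genes and dotted lines mark 2-fold. The 7 immediate early genes lie between -0.88 and 0.29, and 6 of the 8 transcripts bound by ZFP36 lie beyond the upper 2-fold line. Among the 6, Il1b and Il6 passed the filter of 1 FPKM only through overexpressing cells. The lists were chosen with earlier results of these data known.

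Markers of other cells moved between the groups, and all 10 genes are also expressed outside cardiomyocytes. For comparison, 6.97% of all genes were at least 2-fold higher and 1172 of 11697 at least 2-fold lower. The marker lists, too, were chosen with earlier results of these data known. The summed FPKM of the 8 macrophage and leukocyte markers was 109 in MHC cells and 376 in overexpressing cells, with 7 of 8 at least 2-fold higher. That of the 7 fibroblast markers was 209 and 498, with 6 of 7 at least 2-fold higher. That of the 7 endothelial markers was 186 and 302, with 1 of 7, a count near the share over all genes. That of the 6 smooth muscle and pericyte markers was 140 and 319, with 2 of 6. That of the 5 red blood cell markers was 56.6 and 295, with 4 of 5. Some macrophage and red blood cell markers were under 1 FPKM in MHC cells and passed the filter only through overexpressing cells. Of the 8 cardiomyocyte markers with an estimate, 3 were at least 2-fold lower, and the sum of the 8 was 56102 and 36547 FPKM. Their log2 ratios were below 0 for 7 of the 8 and above 0 for 1, beside 6289 below and 5408 above over all genes. On rescaling, at least 2-fold higher were 3 of 7 endothelial, 3 of 6 smooth muscle and pericyte and 8 of 8 macrophage and leukocyte markers. At least 2-fold lower were 2 of 8 cardiomyocyte markers. Over all 11697 genes, rescaling gave 1042 higher and 926 lower. Centring gave 2, 2, 8 and 2 in the same order, beside 920 higher and 1046 lower over all genes. Apart from Myh6 and Mb, 0 of these markers were listed at 0 in either group. In bulk RNA, fewer cells of a type and less RNA per cell cannot be told apart, and the part of these cells in the values of the immediate early genes and of the cytokine transcripts was not tested. The sum over the 10 immediate early genes was 569 FPKM in MHC cells and 452 FPKM in overexpressing cells.

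**Figure D4:**
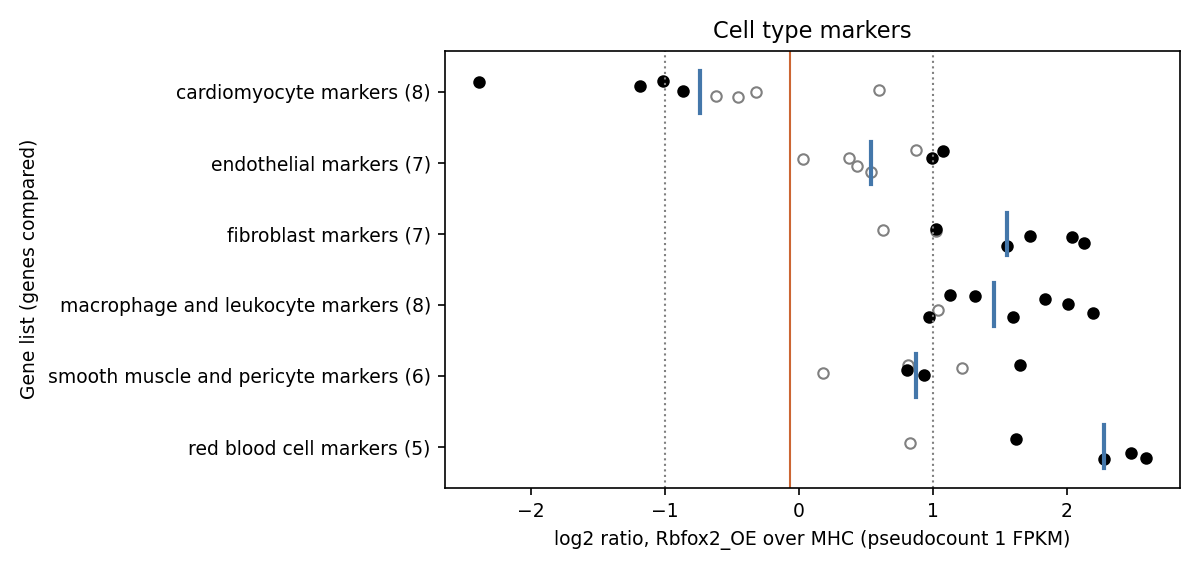
Log2 ratio of Rbfox2_OE over MHC for cell type markers compared (number in parentheses); filled circles have separate bounds, open circles overlapping bounds, blue bars are list medians, the orange line is the median of all genes and dotted lines mark 2-fold. Medians lie at -0.74 for cardiomyocyte markers and at 0.54, 1.55, 1.46, 0.87 and 2.28 for the lists below it.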

How the data were processed

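The deposited values are FPKM, estimated by the authors with Cuffdiff 2.2.1, per the file headers and the submitters' processing notes, which also name STAR 2.4.2a, Trimmomatic, Picard 1.119, HTSeq, DESeq2 and the builds GRCm38 and mm10, without roles. Each FPKM combines the 2 libraries of a group, and Cuffdiff divides fragments among overlapping genes. The normalization mode, annotation release, strand setting and level of the bounds are not given in the sources used here. The other deposited columns used are the authors' lower and upper bounds, in FPKM, the status per group, and the identifier, name and locus of each gene. Depth is unknown, so counting intervals were not given, and the number of unused columns with values per library was 0.

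The 10 genes and the gene lists were chosen with earlier results of these data known. With pandas 2.3.3 on Python 3.11.15, rows sharing a name (110 names) were summed, names with a mean of at least 1 FPKM (11697) were compared by log2 ratios with a pseudocount of 1, and genes were counted at 2-fold and by separate bounds. The planned limma fit needs values per library, so no p-values were computed. Identifiers of 48053 rows (99.2%) matched GENCODE M21. The text names the 10 genes, up to 3 highest and 3 lowest genes with separate bounds in each list other than markers, 3 genes nearest to the most abundant of the 10, and, chosen after values were seen, Fos, Junb, Srf, Nab1, Nab2, Tnnt2, Myl2 and Dnajb1. The calculation was tested on simulated data. Alternatives covered pseudocount, filter, fold, scaling, status and bounds.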

Additional observations from a re-analysis of the deposited data

How the results depend on the processing

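No paired analysis was possible because the values combine both libraries of a group, and for the same reason no library could be left out in turn. The number of the 7 immediate early genes at least 2-fold apart was 0 higher and 0 lower under each alternative but 2. A 1.5-fold threshold gave 1 lower, Dusp1, and a pseudocount of 0.1 without a filter, chosen after seeing the data, gave 1 higher of 10, Egr3. The count of 1 lower gene with separate bounds, Dusp1, became 0 on centring and 0 on rescaling, since both raise the overexpressing group. Ier2 changed sign on rescaling, and the other 9 log2 ratios kept theirs under 5 alternatives (pseudocounts of 0.1 and 5, both scalings, and status). Taking the nearest pair of bounds in place of the values turned the sign of every gene but Dusp1, for example to 0.50 for Egr1 and -0.80 for Zfp36. Overlapping bounds turn the sign by construction, so this restates the overlap and is no further check. Over all genes, a pseudocount of 5 gave 304 higher and 559 lower, a mean of at least 5 FPKM gave 492 higher, thresholds of 1.5-fold and 4-fold gave 1938 and 136 higher and 2582 and 154 lower, respectively. Unknown depth limits the low Egr2, Egr3 and Nr4a2 most.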

Other observations

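Heat shock genes, another group of rapidly induced genes, were compared from a list of 10. At least 2-fold apart were 0 of the 10, beside 17.0% of all genes compared, and separate bounds were found for 0, beside 16.0%. A list of 10 genes is too short for counts of 0 to be set apart from these shares. The median log2 ratio of the list was -0.0012, and it became 0.06 on centring and 0.14 on rescaling. Dnajb1, a co-chaperone gene, lay farthest below equality, at 18.2 FPKM in MHC cells against 9.73 FPKM in overexpressing cells, and its bounds overlapped.

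The 3 protein-coding genes with the levels most like those of Egr1, the most abundant of the 10 genes on average, were Acads, Trim72 and Samm50. Likeness was the distance between log2 values over the 2 groups, and it was 0.049 for Acads, which stood at 158 FPKM in MHC cells and 126 FPKM in overexpressing cells. With 2 values per gene this describes the level and the ratio alone.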
